A study of Mus musculus with 20 samples.

Results

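The genes described here are 42 mouse genes of the Wnt pathway, chosen by name: 19 Wnt ligands, 10 Frizzled receptors, 9 secreted antagonists and 4 target genes or nuclear factors, among 21900 protein-coding genes of the annotation. Suz12 was measured by chromatin immunoprecipitation and sequencing in E14 wild-type mouse embryonic stem cells, grown on gelatin in serum with leukemia inhibitory factor. There were 4 groups of 2 libraries each: cells given 100 µM DRB for 12 h, cells given 10 µM triptolide for 9 h, and a 0 h group for each drug. The libraries come from a single cell line, no vehicle is named for the 0 h groups, and nothing in the labels says that the 2 libraries of a group came from separate cultures, so p-values measure the spread between these libraries, which may be technical. The column headers give the treated libraries other flow cell lanes than the 0 h libraries, so lane and treatment cannot be told apart.

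Suz12 belongs to the catalytic core of the Polycomb complex PRC2, which trimethylates a lysine in the tail of histone H3 and occupies the CpG-rich promoters of silent developmental genes in embryonic stem cells. DRB acts on the kinase needed for paused RNA polymerase II to elongate, and triptolide blocks the helicase of the initiation factor TFIIH. The comparison asks where Suz12 sits at Wnt genes once transcription has been stopped. Wnt ligands are secreted glycoproteins that bind Frizzled receptors with an Lrp co-receptor, which stabilises beta-catenin and lets it act with Tcf and Lef factors on target genes. Secreted Sfrp proteins bind the ligands and Dkk proteins block the co-receptor, and in mouse embryonic stem cells Wnt activity favours self-renewal.

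Peaks of the 8 lists were merged into 11943 regions, and 4281 of them were occupied in every list. The regions assigned to a gene were those within 1 kb of either annotated end, and its lead region was the one with the most reads. Of the 42 Wnt genes, 40 had such a region, in 39 distinct lead regions because Wnt3 and Wnt9b share one. Counts are given as counts per 1e6 reads over all regions of a library after scaling (CPM). The libraries held 2416523 to 7340017 reads over the regions in treated cells and 1323927 to 4396744 in 0 h cells. The peak lists held 7153 to 10929 peaks in treated cells and 5116 to 6886 in 0 h cells. The Polycomb loci Hoxa9, Hoxd10, Pax6 and Cdx2 had a peak in every list, Gata4 had none, and the active loci Actb, Gapdh, Pou5f1 and Nanog had none.

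The promoters below are those of 5 genes that the results turn on: the receptors Fzd7 and Fzd5 and the feedback gene Axin2, where Suz12 was higher in treated cells, and the ligand Wnt1 and the antagonist Dkk1, where it was lower. They are RefSeq sequences on GRCm38.p6, the build of the peak lists, from 250 bases before to 50 after the listed start, written 5′ to 3′ on the gene's strand, with each CG dinucleotide in capitals. CG reads the same on both strands and cannot overlap itself. Fzd7 lies at chr1:59481897-59482196 on the plus strand, Fzd5 at chr1:64737701-64738000 on the minus strand, Axin2 at chr11:108920099-108920398 on the plus strand, Wnt1 at chr15:98789607-98789906 on the plus strand and Dkk1 at chr19:30549447-30549746 on the minus strand.
Fzd7: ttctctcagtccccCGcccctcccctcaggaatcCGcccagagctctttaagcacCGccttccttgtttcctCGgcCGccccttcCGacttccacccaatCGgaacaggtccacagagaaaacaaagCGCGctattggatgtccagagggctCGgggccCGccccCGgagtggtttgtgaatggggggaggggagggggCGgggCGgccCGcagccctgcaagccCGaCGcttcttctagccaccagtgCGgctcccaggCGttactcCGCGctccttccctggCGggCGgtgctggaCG
Fzd5: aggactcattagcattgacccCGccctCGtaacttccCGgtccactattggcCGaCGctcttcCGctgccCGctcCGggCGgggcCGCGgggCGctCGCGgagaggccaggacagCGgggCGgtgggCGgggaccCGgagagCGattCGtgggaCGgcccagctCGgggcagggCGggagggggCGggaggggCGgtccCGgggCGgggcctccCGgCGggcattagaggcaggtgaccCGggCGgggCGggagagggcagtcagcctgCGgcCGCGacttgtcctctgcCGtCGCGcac
Axin2: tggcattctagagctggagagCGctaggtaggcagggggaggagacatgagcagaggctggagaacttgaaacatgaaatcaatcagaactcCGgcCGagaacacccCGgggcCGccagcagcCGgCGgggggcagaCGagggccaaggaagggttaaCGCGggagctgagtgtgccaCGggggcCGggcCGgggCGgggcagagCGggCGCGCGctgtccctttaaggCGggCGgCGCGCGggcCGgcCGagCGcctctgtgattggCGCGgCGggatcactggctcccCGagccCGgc
Wnt1: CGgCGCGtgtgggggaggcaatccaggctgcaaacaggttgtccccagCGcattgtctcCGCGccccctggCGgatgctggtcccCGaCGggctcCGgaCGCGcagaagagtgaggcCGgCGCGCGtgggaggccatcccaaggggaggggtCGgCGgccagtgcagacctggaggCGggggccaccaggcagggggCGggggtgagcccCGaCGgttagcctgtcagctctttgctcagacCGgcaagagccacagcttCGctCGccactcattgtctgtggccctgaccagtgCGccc
Dkk1: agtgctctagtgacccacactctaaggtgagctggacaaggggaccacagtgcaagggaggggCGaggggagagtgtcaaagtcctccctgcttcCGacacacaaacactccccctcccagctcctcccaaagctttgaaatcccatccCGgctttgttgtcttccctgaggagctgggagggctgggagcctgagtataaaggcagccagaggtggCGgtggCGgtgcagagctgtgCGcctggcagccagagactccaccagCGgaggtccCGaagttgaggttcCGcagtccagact

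The Fzd7 window holds 24 CG dinucleotides, a number reached by 20.0% of the 32851 mouse promoter windows of the same length. The Fzd5 window holds 38, reached by 4.95%, and the Axin2 window holds 31, reached by 10.6%. The Wnt1 window holds 26, reached by 16.9%, and the Dkk1 window holds 9, reached by 45.8%. Genes with higher and with lower Suz12 in treated cells therefore both include CG-rich windows. Over the 30 Wnt genes with an entry, which have 37 windows, the median was 24 CG and the range 4 to 58, against a median of 7 and quartiles of 3 and 20 over all windows. The most CG-rich window was that of Wnt9a, with 58, reached by 0.11% of windows. The entry of a gene describes its bases and says nothing of what binds them.

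Nearly all of these genes carried Suz12 before and after transcription was inhibited. A peak was present in all 8 lists at 36 of the 42 genes, against 14.4% of all protein-coding genes. All 19 ligands except Wnt8a, all 10 Frizzled genes except Fzd5, 6 antagonists and 3 of the nuclear factors and targets were in that class. Fzd5 had a peak in the treated lists alone, a class that holds 3.95% of all protein-coding genes. Wnt8a had a peak in 3 treated and 4 untreated lists, Sfrp4 in 4 treated and 2 untreated lists, and Dkk3 in 4 treated and 3 untreated lists, a mixed class that holds 18.0% of protein-coding genes. Dkk4, a Dickkopf antagonist, had no region, the nearest lying 25061 bp away. Axin2, whose product scaffolds the complex that destroys beta-catenin, had none within 1 kb of its annotated ends but a region near its listed start, described with the targets.

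Over both drugs, Suz12 was higher in treated than in 0 h cells at 5 Wnt genes (Fzd7, Fzd5, Fzd9, Tcf7 and Sfrp4), lower at 26 and not called at 9 of the 40. Of the 36 with a peak in all 8 lists, 3 were higher and 24 lower. The Fzd5 region entered through treated peaks alone, which selects for a higher treated count, so its call is a description and not a test. The Tcf7 and Sfrp4 counts also lie over treated peaks that some 0 h lists lack, as given with the targets and the antagonists. Calls are from edgeR's quasi-likelihood test with TMM scaling at an adjusted p under 0.05, with Benjamini-Hochberg adjustment over all regions. Over all regions 28.0% were called higher and 28.9% lower. Among the regions with a peak in all 8 lists, the class most Wnt genes belong to, 10.3% were higher and 59.1% lower, and among those of them near a protein-coding gene end 11.5% and 58.1%, so a fall was the more frequent state of such regions in general. At Fzd7, Fzd5, Fzd9 and Tcf7 every treated library lay above every 0 h library, against 24.4% of all regions and 8.46% of kept regions. The shares called depend on the scaling. When libraries were scaled on the regions held in all 8 lists, called kept-region scaling below, the median log2 change of all regions was 0.41, against 0.05 with TMM, and that of the kept regions was -0.02, against -0.38. With that scaling 12 Wnt genes were higher and 11 lower, beside 49.2% and 10.7% of all regions and 29.6% and 22.1% of kept regions near a gene end. Scaled to the sum of all region counts, 8 were higher and 21 lower, beside 39.0% and 18.7% of all regions. A fall is therefore relative to the scaling, and the order of the genes is what both scalings share.

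**Figure D1:**
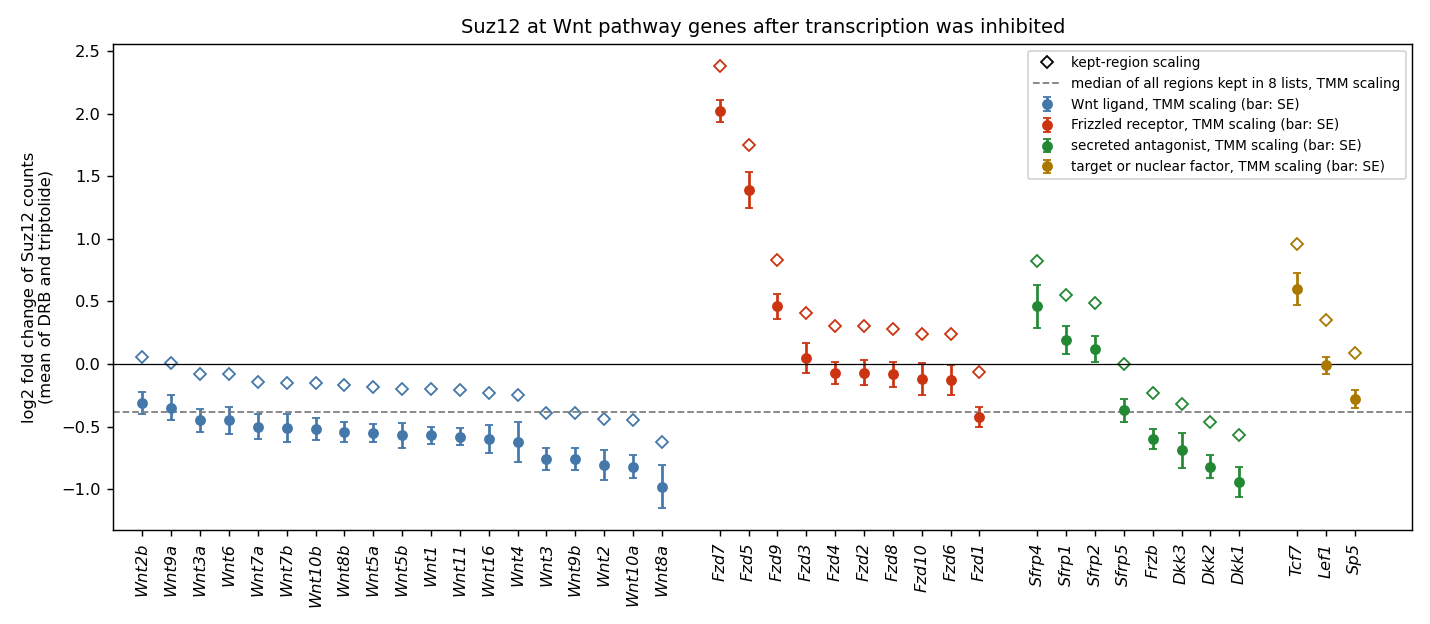
Log2 fold change of Suz12 counts over the mean of both drugs (treated over 0 h) for the 40 Wnt genes with a region, by role. Filled points are TMM values with standard errors and open diamonds kept-region scaling. Fzd7 stands at 2.02 and Fzd5 at 1.39, and the 19 ligands lie between -0.98 and -0.31 with TMM.

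All 19 ligand genes had lower Suz12 in treated cells with TMM scaling, but with kept-region scaling 8 were called lower, 11 were not called, and Wnt2b (0.06) and Wnt9a (0.01) changed sign. The share called lower among all kept regions was 59.1% with TMM. With kept-region scaling it was 22.1% of the kept regions near a gene end and 10.7% of all regions. The median log2 change was -0.57 with TMM and -0.20 with kept-region scaling, and none was called higher under either. At 14 of the 19 every treated library lay below every 0 h library, against 25.2% of all regions and 53.0% of kept regions. The 5 ligands whose libraries overlapped between the groups were Wnt2b, Wnt4, Wnt6, Wnt7b and Wnt9a.

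Wnt8a, a ligand of early embryonic patterning, had the largest fall among ligands and a weak signal. Its region held 22.4 and 40.2 CPM under DRB and 33.0 and 41.2 CPM under triptolide, against 46.8 and 62.1 CPM in DRB 0 h cells and 90.6 and 79.0 CPM in triptolide 0 h cells. Every treated library lay below every 0 h library, and the log2 change was -0.98 ± 0.17 (SE, adjusted p = 4.47e-04, n = 4 libraries each, edgeR) with TMM and -0.62 with kept-region scaling. Wnt10a, an ectodermal ligand needed for teeth and skin appendages, held 236 and 232 CPM under DRB and 270 and 304 CPM under triptolide, against 480 and 393 CPM in DRB 0 h cells and 450 and 515 CPM in triptolide 0 h cells. Its log2 change was -0.82 ± 0.09 (SE, adjusted p = 2.46e-05, edgeR). A further Wnt10a region, at chr1:74801509-74808698, fell by 0.68 on the log2 scale, so both of its regions moved the same way. Wnt2 held 76.0 and 106 CPM under DRB and 91.6 and 106 CPM under triptolide, against 173 and 155 CPM in DRB 0 h cells and 172 and 174 CPM in triptolide 0 h cells. Its log2 change was -0.81 ± 0.12 (SE, adjusted p = 1.07e-04, edgeR), with no overlap between the groups.

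The region at chr11:103769988-103775960 serves both Wnt3, a ligand required for the primitive streak, and Wnt9b, a ligand of kidney tubule formation. It lies over the start of Wnt3 and over the annotated upstream end of Wnt9b, which is on the minus strand. It held 241 and 271 CPM under DRB and 271 and 251 CPM under triptolide, against 475 and 401 CPM in DRB 0 h cells and 442 and 442 CPM in triptolide 0 h cells. The groups did not overlap, and the log2 change was -0.76 ± 0.09 (SE, adjusted p = 2.64e-05, edgeR). The listed start of Wnt9b lies 20167 bp away in a region of its own, where the log2 change was -0.59 ± 0.09 (SE, adjusted p = 1.14e-04, edgeR) with TMM and -0.23 with kept-region scaling. The lead region of Wnt6 also lies off its listed start, by 9865 bp and near the downstream end of the gene. Its log2 change was -0.45 ± 0.11, and the region over the Wnt6 start changed by -0.39 ± 0.10 (SE). Both Wnt6 values passed the test with TMM, while with kept-region scaling they were -0.08 and -0.02.

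Wnt1, the founding ligand of the family and needed for the midbrain, had a change equal to the ligand median. Its region at chr15:98788563-98794356 held 579 and 537 CPM under DRB and 564 and 564 CPM under triptolide, against 809 and 772 CPM in DRB 0 h cells and 840 and 919 CPM in triptolide 0 h cells. The treated libraries were close to each other and all lay below the 0 h libraries, with a log2 change of -0.57 ± 0.07 (SE, adjusted p = 4.98e-05, edgeR). The peak lengths overlapped, as it covered 4616, 5794, 5104 and 4810 bp in the treated lists, against 4453, 5140, 5206 and 5561 bp in the 0 h lists. Its neighbour Wnt10b changed by -0.52 ± 0.09 and Wnt11, a ligand of convergent extension, by -0.58 ± 0.07. Wnt5a, the best known ligand of the planar polarity branch, changed by -0.55 ± 0.07 (SE).

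At the other end of the ligands stood Wnt2b, with 361 and 294 CPM under DRB and 292 and 290 CPM under triptolide, against 417 and 352 CPM in DRB 0 h cells and 377 and 383 CPM in triptolide 0 h cells. The groups overlapped and the log2 change was -0.31 ± 0.09 (SE, adjusted p = 0.0127, edgeR), a call lost without triptolide 9 h replicate 2 (-0.30) and without the shallower DRB 0 h library (-0.25). Wnt9a changed by -0.35 ± 0.10 (SE, adjusted p = 0.0104, edgeR), a call lost without triptolide 9 h replicate 1 (-0.32) and without triptolide 0 h replicate 2 (-0.27). Wnt3a, the ligand most used to stimulate the pathway in culture, changed by -0.45 ± 0.09 with TMM and -0.08 with kept-region scaling. Wnt7b had the highest mean CPM of all 42 genes, with 1029 and 727 CPM under DRB and 751 and 773 CPM under triptolide, against 1316 and 1000 CPM in DRB 0 h cells and 1118 and 1242 CPM in triptolide 0 h cells. One DRB library of Wnt7b reached into the 0 h range, and the log2 change was -0.51 ± 0.11 (SE, adjusted p = 0.00204, edgeR). The other ligands, Wnt4, Wnt5b, Wnt7a, Wnt8b and Wnt16, lay between -0.62 and -0.50. The Wnt8b region lies 16457 bp from the listed start of the gene, near its downstream end. No region lay at the Wnt8b start or elsewhere in the gene.

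Several ligand genes held further Suz12 regions in their bodies, more than 1 kb from an annotated end. Regions with a peak in all 8 lists within Wnt3 changed by -1.04 ± 0.13 and -0.44 ± 0.08 (SE). Such regions changed by -1.04 ± 0.12 in Wnt5a, -0.88 ± 0.12 in Wnt10a, -0.57 ± 0.12 in Wnt11, -0.45 ± 0.12 in Wnt10b and -0.32 ± 0.12 in Wnt3a (SE), and each of these passed the test with TMM. The Wnt7b body region did not (-0.12 ± 0.12, adjusted p = 0.391, edgeR). Body regions with a peak in only some lists ranged more widely, with values of -0.82 in Wnt5a, -0.69 in Wnt10b, 0.01 in Wnt6, 0.04 in Wnt9a and 0.30 in Wnt5b. The highest of them, in Wnt5b at chr6:119479515-119481530, had a peak in the 4 treated lists and in none of the 0 h lists, and its log2 change of 0.98 ± 0.13 (SE) is a description, since treated peaks alone defined it.

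The Frizzled receptors were split. Of the 9 with a peak in all 8 lists, Fzd7 and Fzd9 rose, Fzd1 fell and 6 were not called, beside 10.3% of kept regions higher and 59.1% lower. Fzd5 had peaks after treatment alone, and the median log2 change of all 10 was -0.07. With kept-region scaling the median was 0.30, and 7 receptors, the selected Fzd5 among them, were called higher and none lower. With that scaling 49.2% of all regions were higher and 10.7% lower, and 29.6% and 22.1% of kept regions near a gene end. Fzd2, Fzd4, Fzd6, Fzd8 and Fzd10 changed sign between the scalings. Fzd3 was positive under both, and Fzd7 and Fzd9 were called higher under both.

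Fzd7, a receptor linked to self-renewal in human pluripotent stem cells, had the largest change of all. Its region at chr1:59481333-59485441 covers the start and most of the gene, and it held 448 and 379 CPM under DRB and 453 and 453 CPM under triptolide, against 87.1 and 86.6 CPM in DRB 0 h cells and 128 and 134 CPM in triptolide 0 h cells. Treated libraries averaged 433 ± 36.2 CPM and 0 h libraries 109 ± 25.6 CPM (SD, n = 4 each). The log2 change was 2.02 ± 0.09 (SE, adjusted p = 9.94e-08, edgeR), a 4.06-fold higher count. It ranked 1 of the 4281 regions with a peak in all 8 lists and 19 of all 11943 regions by log2 change. The underlying reads were 1120, 3020, 2143 and 2177 in treated libraries and 106, 368, 447 and 371 in 0 h libraries. The peak also covered more sequence, with 3164, 3356, 4109 and 3423 bp in the treated lists and 757, 2030, 2230 and 2424 bp in the 0 h lists. Counted over the widest 0 h peak alone, with libraries rescaled on the regions with a 0 h peak, the log2 change was 2.37. The rise was thus present within the stretch already occupied at 0 h.

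Fzd5, a receptor required in the yolk sac and eye, had no called peak in any 0 h list and one in every treated list. Its region at chr1:64734591-64737885 held 110 and 149 CPM under DRB and 95.2 and 109 CPM under triptolide, against 33.7 and 48.9 CPM in DRB 0 h cells and 42.1 and 47.3 CPM in triptolide 0 h cells. All treated libraries lay above all 0 h libraries, and the log2 change was 1.39 ± 0.14 (SE). Because the region exists only through treated peaks and is counted over one of them, this value is a description with no test. The 0 h counts were not nil: they averaged 43.0 ± 6.86 CPM, against 116 ± 23.0 CPM in treated cells (SD, n = 4 each). Both DRB peaks reached the listed start, whereas both triptolide peaks began downstream of it.

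**Figure D2:**
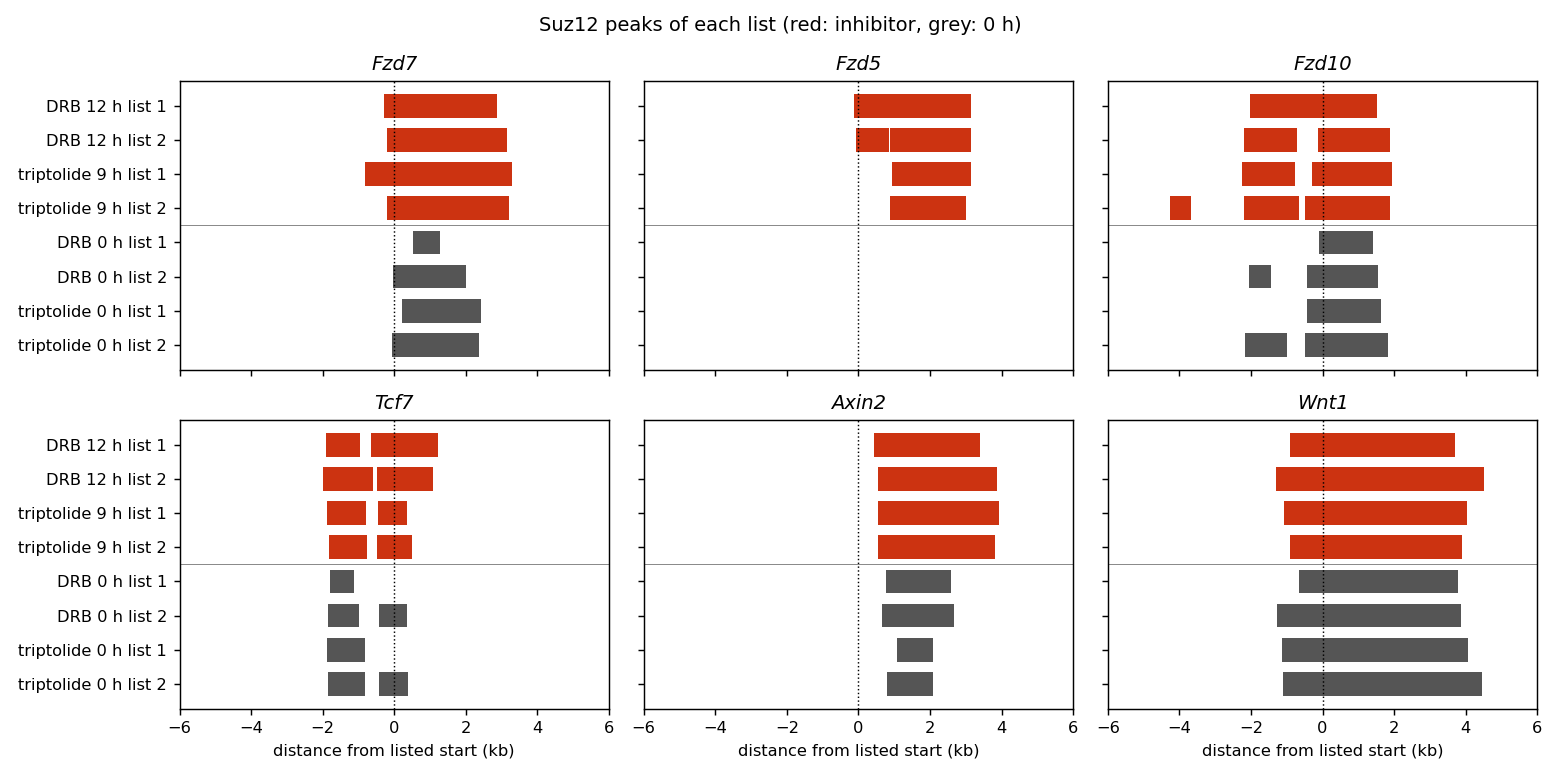
Suz12 peaks of each list at 6 genes, by distance in kb from the listed start in the direction of transcription (red, drug-treated lists above; grey, 0 h lists below). At Fzd7 the peaks span 3164 to 4109 bp in treated lists and 757 to 2424 bp in 0 h lists, Fzd5 has peaks in treated lists alone, and at Wnt1 the lengths overlap.

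Fzd9, a receptor of neural and bone tissue, held 335 and 260 CPM under DRB and 264 and 299 CPM under triptolide, against 225 and 203 CPM in DRB 0 h cells and 202 and 210 CPM in triptolide 0 h cells. The groups did not overlap and the log2 change was 0.46 ± 0.10 (SE, adjusted p = 0.00189, edgeR). Fzd1 fell: it held 421 and 389 CPM under DRB and 417 and 445 CPM under triptolide, against 528 and 553 CPM in DRB 0 h cells and 551 and 606 CPM in triptolide 0 h cells. Its log2 change was -0.42 ± 0.08 (SE, adjusted p = 5.94e-04, edgeR) with TMM, and it was not called at -0.06 with kept-region scaling. Fzd1 thus stood near the middle of the kept regions, and Fzd7 far from it.

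Fzd10 had values of opposite sign under the drugs, with no difference called between them. It held 102 and 128 CPM under DRB and 177 and 212 CPM under triptolide, against 141 and 170 CPM in DRB 0 h cells and 144 and 198 CPM in triptolide 0 h cells. The DRB libraries lay below their own 0 h libraries with a log2 change of -0.44 ± 0.18, while the triptolide libraries overlapped theirs with 0.19 ± 0.18 (SE). Neither change was called (adjusted p = 0.0782 and 0.408, edgeR). Its peaks were longer in treated lists all the same, with 3561, 3511, 3727 and 3908 bp against 1518, 2596, 2081 and 3478 bp in 0 h lists.

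The remaining receptors moved little. The log2 change was -0.07 ± 0.10 at Fzd2, 0.05 ± 0.12 at Fzd3, -0.07 ± 0.09 at Fzd4, -0.13 ± 0.12 at Fzd6 and -0.08 ± 0.10 at Fzd8 (SE). Fzd6, a planar polarity receptor of hair follicles, held 77.6 and 92.7 CPM under DRB and 74.0 and 87.2 CPM under triptolide, against 83.0 and 89.9 CPM in DRB 0 h cells and 83.7 and 107 CPM in triptolide 0 h cells, with full overlap. All 5 were between 0.24 and 0.41 with kept-region scaling, where every one except Fzd6 was called higher. Per kilobase, Fzd2 had the highest level of the receptors, with 136 CPM per kb in treated and 143 CPM per kb in 0 h libraries, and Fzd5 the lowest, with 35.3 and 13.2 CPM per kb. Fzd5 and Fzd7 were the lowest receptors per kilobase at 0 h, and Fzd7 stood at 105 CPM per kb in treated and 26.5 CPM per kb in 0 h libraries.

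The Frizzled genes were covered by peaks over more sequence in treated lists. The peaks of the 10 receptors covered 27.4, 30.3, 29.5 and 27.7 kb in the treated lists, against 16.8, 21.6, 23.1 and 24.1 kb in the 0 h lists. Fzd5, which has a region through treated peaks alone, gave 3271, 3220, 2224 and 2145 bp of the treated lengths and none of the 0 h lengths. Part of the gap is thus built in by that selection. There were 36 Wnt genes with a peak in all 8 lists. Among them, only Fzd3, Fzd7, Fzd9, Fzd10 and Tcf7 had longer peaks in every treated list than in every 0 h list. That held for 13.1% of the kept regions, a share near that among these Wnt genes. The reverse held for 0.467% of kept regions and for none of the Wnt genes. The treated lists also held more peaks in total than any 0 h list, and the part of that in these lengths was not tested.

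Of 8 secreted antagonists with a region, 1 was called higher (Sfrp4), 5 lower (Sfrp5, Frzb, Dkk1, Dkk2 and Dkk3) and 2 not (Sfrp1 and Sfrp2), beside 59.1% of kept regions lower and 10.3% higher. Their count of falls was thus near that of kept regions in general. With kept-region scaling 3 were higher (Sfrp1, Sfrp2 and Sfrp4) and 3 lower (Frzb, Dkk1 and Dkk2). That stood beside 49.2% higher and 10.7% lower over all regions, and 29.6% and 22.1% over kept regions near a gene end.

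Dkk1, the head-inducing inhibitor of the Lrp co-receptor, had the largest fall. Its region at chr19:30548137-30549954 held 42.4 and 59.9 CPM under DRB and 55.0 and 57.7 CPM under triptolide, against 89.6 and 95.1 CPM in DRB 0 h cells and 113 and 121 CPM in triptolide 0 h cells. All treated libraries lay below all 0 h libraries, and the log2 change was -0.94 ± 0.12 (SE, adjusted p = 5.65e-05, edgeR) with TMM and -0.57 with kept-region scaling. Dkk2, which also binds the co-receptor, held 109 and 129 CPM under DRB and 117 and 106 CPM under triptolide, against 208 and 193 CPM in DRB 0 h cells and 213 and 204 CPM in triptolide 0 h cells. Its log2 change was -0.82 ± 0.09 (SE, adjusted p = 2.71e-05, edgeR), again without overlap. Dkk3, the divergent member of the family, held 29.2 and 40.2 CPM under DRB and 39.6 and 34.8 CPM under triptolide, against 49.3 and 63.3 CPM in DRB 0 h cells and 61.9 and 57.0 CPM in triptolide 0 h cells. It changed by -0.69 ± 0.14 (SE, adjusted p = 0.00123, edgeR) with TMM and was not called with kept-region scaling (-0.32).

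Frzb, a decoy receptor first found in cartilage, changed by -0.60 ± 0.08 (SE) and had the highest mean CPM of the antagonists, with 234 and 237 CPM under DRB and 237 and 237 CPM under triptolide, against 354 and 343 CPM in DRB 0 h cells and 365 and 370 CPM in triptolide 0 h cells. The 4 treated values were nearly identical and well below the 0 h values. Sfrp5 changed by -0.37 ± 0.09 (SE) with TMM and -0.0027 with kept-region scaling. Sfrp1, a soluble Frizzled-like inhibitor, held 291 and 272 CPM under DRB and 285 and 322 CPM under triptolide, against 203 and 248 CPM in DRB 0 h cells and 246 and 334 CPM in triptolide 0 h cells. Its groups overlapped and it was not called with TMM (0.19 ± 0.11, adjusted p = 0.165, edgeR). Sfrp2 held 172 and 201 CPM under DRB and 192 and 191 CPM under triptolide, against 151 and 194 CPM in DRB 0 h cells and 171 and 175 CPM in triptolide 0 h cells, a change of 0.12 ± 0.10 (SE). The Sfrp4 count was taken over a peak of DRB 12 h list 2. DRB 0 h list 1 and triptolide 0 h list 1 had no peak there, so the counted stretch favours a higher treated count. Sfrp4 held 39.2 and 63.9 CPM under DRB and 64.9 and 61.4 CPM under triptolide, against 30.4 and 45.4 CPM in DRB 0 h cells and 48.5 and 40.1 CPM in triptolide 0 h cells. Its call was narrow (0.46 ± 0.17, adjusted p = 0.0332, edgeR) and was lost when any of 5 libraries was left out, with values of 0.23 without the deeper DRB 12 h library, 0.45 and 0.49 without triptolide 9 h replicates 1 and 2, 0.37 without the shallower DRB 0 h library and 0.40 without triptolide 0 h replicate 2.

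**Figure D3:**
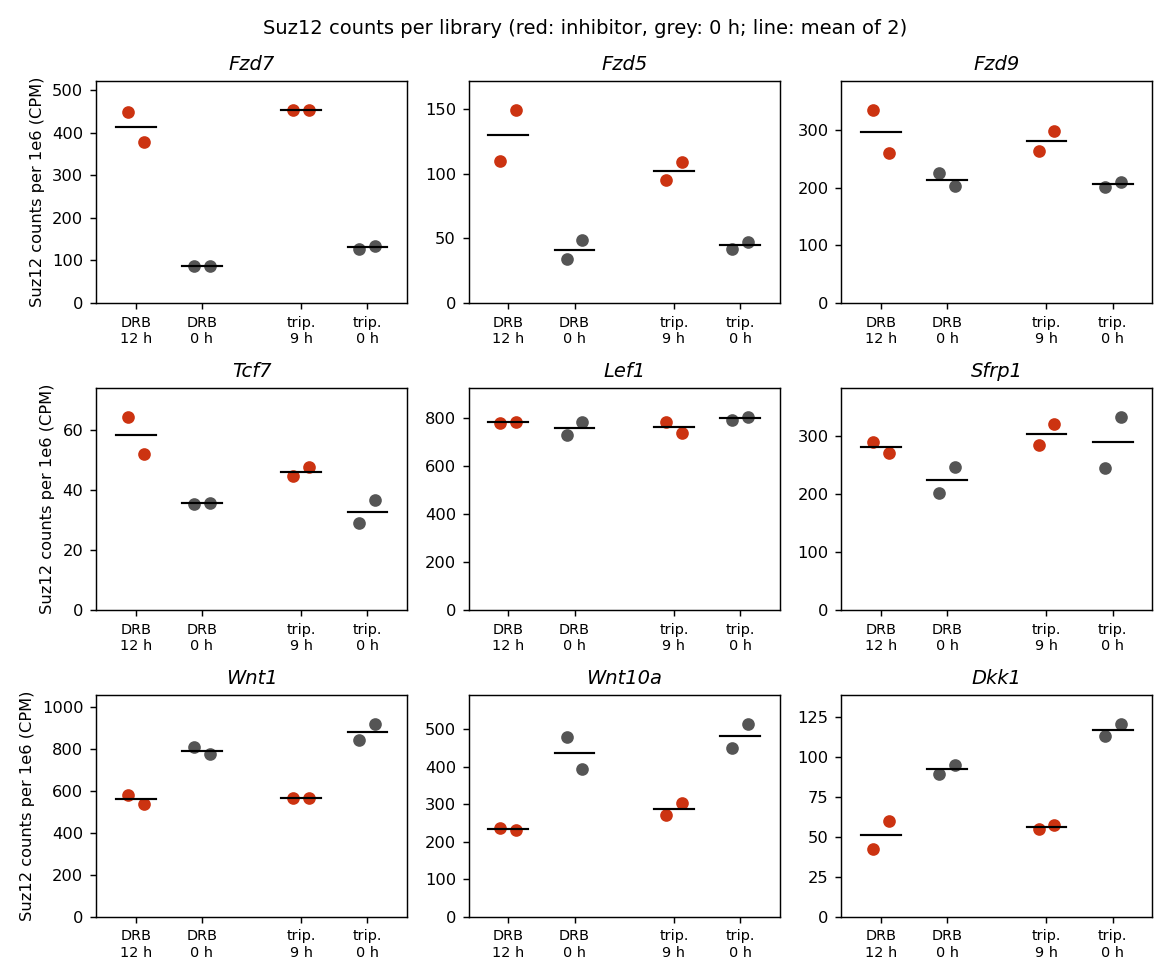
Suz12 CPM in each library at 9 Wnt genes, drug-treated libraries (red) left of their 0 h libraries (grey), with a line at the mean of 2. Treated libraries lie above 0 h at Fzd7, Fzd5, Fzd9 and Tcf7, overlap them at Lef1 and Sfrp1, and lie below them at Wnt1, Wnt10a and Dkk1.

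The nuclear factors and targets each behaved differently. Tcf7 and Lef1 encode partners of beta-catenin on DNA, and Sp5 and Axin2 are among the most direct Wnt targets. Tcf7 held 64.4 and 52.1 CPM under DRB and 44.6 and 47.7 CPM under triptolide, against 35.3 and 35.8 CPM in DRB 0 h cells and 29.0 and 36.5 CPM in triptolide 0 h cells. The groups did not overlap and the log2 change was 0.60 ± 0.13 (SE, adjusted p = 0.00229, edgeR). This value was counted over a peak of DRB 12 h list 1, from -654 to 1222 bp around the listed start. DRB 0 h list 1 and triptolide 0 h list 1 had no peak there, so the counted stretch favours a higher treated count. Over the widest 0 h peak, a separate stretch from -1887 to -816 bp, the change was 0.08 and not called. These values belong to different sites of the merged region. Lef1 held 781 and 787 CPM under DRB and 786 and 740 CPM under triptolide, against 731 and 786 CPM in DRB 0 h cells and 795 and 807 CPM in triptolide 0 h cells, a change of -0.01 ± 0.07 (SE, adjusted p = 0.894, edgeR). With kept-region scaling Lef1 was called higher, at 0.35. Sp5 held 699 and 630 CPM under DRB and 606 and 592 CPM under triptolide, against 832 and 753 CPM in DRB 0 h cells and 742 and 741 CPM in triptolide 0 h cells. Its fall of 0.28 on the log2 scale (adjusted p = 0.00627, edgeR) passed the test with TMM, and with kept-region scaling its value was 0.09 and not called.

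Axin2 has a region that the rule on gene ends does not reach, because its annotated end lies 2963 bp upstream of it. The region at chr11:108920791-108924281 begins 442 bp from the listed start printed above and had a peak in all 8 lists. It held 208 and 195 CPM under DRB and 180 and 168 CPM under triptolide, against 128 and 90.8 CPM in DRB 0 h cells and 91.2 and 85.9 CPM in triptolide 0 h cells. All treated libraries lay above all 0 h libraries, and the log2 change was 0.95 ± 0.11 (SE, adjusted p = 3.23e-05, edgeR) with TMM and 1.31 with kept-region scaling. These values were counted over the widest peak, that of triptolide 9 h list 1, from 545 to 3932 bp after the listed start. The 0 h peaks all lay between 647 and 2671 bp, so the counted stretch favours a higher treated count. The change over a 0 h peak alone is not given for Axin2. The Axin2 region was looked up after its absence by the rule was seen and is not among the counts of the 40 genes.

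The drugs act at different steps of transcription, and each was compared with its own 0 h cells. Under DRB, 4 genes were higher (Fzd7, Fzd9, Tcf7 and, by its selection, Fzd5) and 21 fell, beside 18.0% and 19.2% of all regions and 6.82% and 42.4% of kept regions. Under triptolide the same 4 were higher and 24 fell, beside 19.3% and 21.9% of all regions and 6.77% and 48.7% of kept regions. With kept-region scaling 9 rose under each drug, and 6 fell under DRB and 7 under triptolide. The shares of all regions with that scaling were tallied for both drugs together alone, at 49.2% higher and 10.7% lower. These counts per drug thus stand without a share of their own and are not read as a result about the Wnt genes. Single libraries also bear on these counts: without the deeper DRB 0 h library 2 genes rose under DRB, without triptolide 9 h replicate 2 or either triptolide 0 h replicate 2 rose under triptolide, and without triptolide 9 h replicates 1 and 2 in turn 12 and 14 fell. Fzd7 changed by 2.25 ± 0.13 under DRB and by 1.79 ± 0.12 under triptolide (SE). Fzd5 changed by 1.59 ± 0.20 and 1.19 ± 0.20, and Dkk1 by -0.82 ± 0.18 and -1.05 ± 0.17 (SE). The 4 DRB and 4 triptolide libraries share no sample, and across the 35 distinct lead regions with a peak in all 8 lists the changes had Pearson's r of 0.95 and Spearman's rho of 0.89, a description over regions of the same libraries. Without Fzd7, r was 0.91 and rho 0.88.

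**Figure D4:**
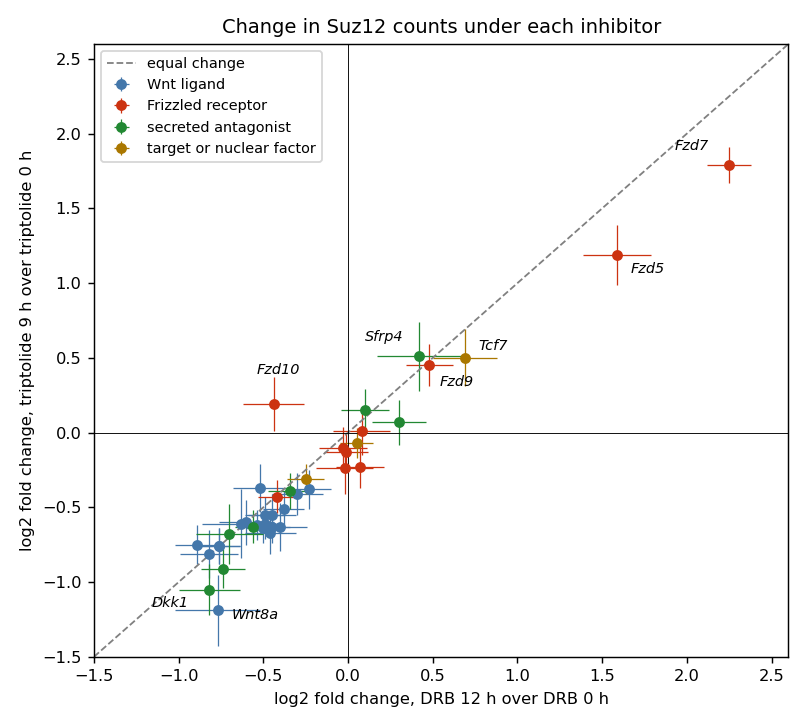
Log2 fold change of Suz12 counts under DRB (12 h over 0 h, x axis) and under triptolide (9 h over 0 h, y axis) for the Wnt genes, with standard errors and a dashed line of equal change. Fzd7 lies at 2.25 and 1.79, and Fzd10 at -0.44 and 0.19 stands off the line.

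No Wnt gene was called for a difference between the DRB and the triptolide change in edgeR, where 0.0167% of all regions were, and none was in DESeq2. At an unadjusted p under 0.05 there were 2, Fzd7 with a difference of 0.46 ± 0.18 and Fzd10 with -0.63 ± 0.25 (SE). Treatment lasted 12 h with DRB and 9 h with triptolide, so dose, time and drug differ together.

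The level at 0 h and the change were also set side by side. Across the same 35 regions the 0 h level per kilobase (log2 CPM per kb) and the log2 change had r of -0.57 and rho of -0.28. Over all 4281 kept regions r was -0.46 and rho -0.42. The 0 h level enters both measures, so part of these values is built in, and they are given as a description.

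Beyond the 42 genes, a list of 62 other pathway genes was counted in full. Of these 55 had a region, and 21 were higher, 14 lower and 20 not called over both drugs with TMM, against 34 higher and 5 lower with kept-region scaling. The higher calls at Tcf7l1, Znrf3, Dvl1, Ryk, Lgr4, Lrp6, Ptk7, Dvl3, Vangl2, Apc and Tle4 are a description with no test. Their regions had no 0 h peak, which selects for a higher treated count. The same holds for Kremen1, Gsk3a, Gsk3b and Pygo2, called higher with kept-region scaling alone. Tcf7l2, Bcl9l, Vangl1, Lrp5, Dact2, Ccnd1 and Tle3, also called higher, had a peak in every treated list but in only 1 to 3 of the 0 h lists. Selection toward a higher treated count may thus enter their calls in part. Over all regions the shares were 28.0% higher and 28.9% lower with TMM, and 49.2% and 10.7% with kept-region scaling. Among the 29 with a peak in all 8 lists, 3 were higher and 13 lower, beside 10.3% and 59.1% of all such regions. Suz12 was higher at Notum, which encodes an enzyme that inactivates Wnt ligands, with 284 and 190 CPM under DRB and 186 and 169 CPM under triptolide, against 84.6 and 73.6 CPM in DRB 0 h cells and 82.9 and 72.9 CPM in triptolide 0 h cells. Its log2 change was 1.39 ± 0.13 (SE, adjusted p = 8.46e-06, edgeR), and Notum, like Axin2, is a feedback target of the pathway. Ccnd1, the cell cycle gene for cyclin D, changed by 1.37 ± 0.11, and Tle3, a corepressor of Tcf factors, by 1.33 ± 0.14 (SE), both in regions with a peak in some lists. Peaks in the treated lists alone were seen at Tcf7l1, the Tcf repressor of embryonic stem cells, at the membrane ligase gene Znrf3, and at Dvl1 and Ryk, with log2 values of 1.32, 1.22, 0.98 and 0.72 that are a description, since treated peaks alone defined these regions. The largest falls were at the Wnt5a receptor Ror1 (-1.24 ± 0.10), the R-spondin gene Rspo2 (-1.22 ± 0.11) and its receptor Lgr5 (-1.11 ± 0.08, SE). Ror1, Rspo2 and Lgr5 kept values of -0.87, -0.85 and -0.75 with kept-region scaling.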

How the data were processed

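Per the submitters' processing notes, reads were aligned with Bowtie to mm10 (GRCm38) and peaks called with MACS, with no version or threshold stated there. The authors deposited 8 Suz12 peak lists, each with read counts over its peaks in 13 library columns per the file headers; 8 columns were used and 5 (other times and inputs) were not. The other 12 of the 20 samples were not analysed here. Counts are whole reads over a peak. No mapped total per library was at hand, so CPM is relative to reads over regions, and errors cover counting error and library spread only. The lists hold no peak score. DRB columns are named by sequencing index and triptolide columns by replicate.

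Peaks overlapping by 1 bp were merged with Python 3.11.15 and pandas 2.3.3, and a region took the counts over its widest peak. edgeR 4.0.16 (R 4.3.3) fitted the 4 groups with no filter and no covariate. Standard errors are the log2 change over the square root of F. On simulated counts with the spread and depth of these libraries (11943 regions, both drugs), 41.8% of the 1.5-fold changes, 92.5% of those of 2-fold and 98.5% of those of 3-fold were called. Only 67, 67 and 66 regions were changed there by 1.5-fold, 2-fold and 3-fold, and 11743 were not. In the data 28.0% of regions were called higher and 28.9% lower, so these rates describe the simulated setting alone. DESeq2 1.42.0 was an alternative. The chi-square per degree of freedom between replicates was 2.47 to 8.65, so no library was a copy of another.

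Genes were given values per library by a rule: within each role the 3 of largest positive and negative change, those with peaks in treated or 0 h lists alone, and that of highest mean CPM; others were added after values were seen. Members and lists were chosen with earlier results of these data known.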

Additional observations from a re-analysis of the deposited data

How the results depend on the processing

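All 599 recomputed changes of single Wnt genes over both drugs gave 521 with direction and side of the threshold kept, 39 that lost the call, 9 that gained it and 30 that changed sign, of which 0 were called both times. Over both drugs, 8 Wnt genes were higher when scaled to the sum of all region counts, and 12 higher and 11 lower with kept-region scaling. With counts over the widest 0 h peak, which leaves out parts of a region gained after treatment, 9 were higher and 12 lower. That setting also rescaled the libraries, on the 6828 regions with a 0 h peak. The median log2 change of the kept regions was then -0.07, against -0.38, so counted stretch and scaling changed together. Leaving out single libraries gave 4 to 5 higher and 25 to 26 lower. Under DRB, 11 were lower with the sum, 9 higher and 6 lower with kept-region scaling, 6 lower over the widest 0 h peak, and 12 lower with the 4 DRB libraries alone. Single libraries left out gave 2 to 4 higher, with 2 without the deeper DRB 0 h library, and 15 to 25 lower. Under triptolide, 9 were higher and 7 lower with kept-region scaling, and 10 lower over the widest 0 h peak. Single libraries left out gave 2 to 5 higher, with 2 without triptolide 9 h replicate 2 or either triptolide 0 h replicate, and 12 to 25 lower, with 12 and 14 without triptolide 9 h replicates 1 and 2. Where a library was left out, the lone library of its group was taken to vary like the other groups. With only peaks of at least the median width (1357 bp), 10 genes had a peak in some lists and 29 in all 8. No difference between drugs was called under the other scalings, DESeq2, the filter, the other counted peaks or any library left out. Over both drugs, the shares of all regions were 28.0% higher and 28.9% lower with TMM, and 49.2% and 10.7% with kept-region scaling. With the sum they were 39.0% and 18.7%. For the other settings, and for each drug under any of them, no share of all regions was tallied. Those counts describe the settings and do not set the Wnt genes apart from other regions. The cause of these shifts was not tested.

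The sign of small changes depended on the scaling. With the sum of region counts, the log2 change was 0.13 at Fzd2 and Fzd4, 0.07 at Fzd6, 0.12 at Fzd8, 0.08 at Fzd10 and 0.19 at Lef1. With kept-region scaling it was 0.06 at Wnt2b, 0.01 at Wnt9a, 0.30 at Fzd2 and Fzd4, 0.24 at Fzd6 and Fzd10, 0.28 at Fzd8, 0.35 at Lef1 and 0.09 at Sp5. Over the widest 0 h peak, where the libraries were also rescaled, it was 0.01 at Wnt2b, 0.25 at Fzd2 and Fzd4, 0.19 at Fzd6, 0.24 at Fzd8, 0.30 at Lef1 and 0.04 at Sp5.
Leaving out single libraries, the log2 change ranged over -0.16 to 0.04 at Fzd2, -0.04 to 0.13 at Fzd3, -0.16 to 0.01 at Fzd8, -0.23 to 3.1e-04 at Fzd10 and -0.04 to 0.02 at Lef1.

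The replicate block was an alternative because same-numbered triptolide libraries share no more than a number in the labels. Their deviations from the group means correlated over regions with r = 0.391, and those of same-index DRB libraries with 0.375. With the replicate block 3 Wnt genes were higher and 24 lower under triptolide, and with an index block, added after seeing the data, 5 were higher and 27 lower under DRB. The share of all regions called with either block was not tallied.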
